A study of Mus musculus with 6 samples.

Results

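The peaks described here are regions where H3K4me3, a histone mark, was called in cultured natural killer (NK) cells of wild-type mice, was not called in those of mice without Tcf1, and lay away from gene starts. A peak of the wild-type list counted when it lay on chromosomes 1 to 19 or X, shared no base with a peak of the knockout list, and had no transcription start site (TSS) within 1 kb. The start sites were those of the 18633 genome features that the 4 deposited peak lists name. By that rule there were 1691 such peaks among the 13771 distinct peaks of the wild-type list, 13753 of which lay on those chromosomes. The rule used the H3K4me3 lists of both genotypes, so the number of peaks and their absence from the knockout list are descriptions and not findings.

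The study profiled splenic NK cells kept for 5 days in interleukin-2 at 500 ng/mL, from Tcf7+/+ mice (strain given as B6, here WT) and Tcf7-/- mice (B6.129 Tcf7Tm1Cle, here KO). From each genotype an input library, a Tcf1 antibody library and an H3K4me3 antibody library were sequenced, which makes 6 groups of 1 library each. Chromatin was cross-linked for 10 min in 1% formaldehyde, inserts of 100 to 400 bp were kept, and reads were 100 bases long. Every cell of the KO cultures lacked Tcf7 from the germ line, so an effect during NK cell development and one in the cultured cell cannot be told apart. Genotype and strain label also move together and cannot be told apart. With 1 library a group there is no replicate check, so no test was run, and the 95% Wilson intervals given with shares cover counting error only.

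H3K4me3 is trimethylation of lysine 4 on histone H3. It is laid down by COMPASS-type methyltransferases that recognise unmethylated CpG-rich DNA, and it is known chiefly as a mark of active promoters, with weaker signal at some active enhancers. Tcf7 encodes Tcf1, an HMG-box transcription factor that can recruit beta-catenin or repressors of the Groucho type, and it is known for its part in T cell and NK cell development. NK cells are cytotoxic lymphocytes that read activating and inhibitory receptors and depend on cytokines of the interleukin-2 family.

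The lists held the marks of NK cells in both genotypes. All 8 NK cell marker genes examined (Ncr1, Klrb1c, Klrk1, Klrd1, Eomes, Tbx21, Prf1 and Gzmb) held an H3K4me3 peak inside or within 1 kb in WT and in KO, with 499 to 2997 tags a gene in WT and 236 to 3370 in KO. Of 6 T cell markers, 3 held a peak in WT (Cd3d, Cd3e and Cd4, with 147, 64 and 79 tags) and 0 in KO, and Cd3g, Cd8a and Cd5 had none in either. Of 5 B cell markers, Cd79a alone held one, in both genotypes, and of 5 myeloid markers 2 did in WT and 1 in KO. The WT H3K4me3 peaks held 6635272 tags in all and the 11074 KO peaks 7507763, a measure of the tags inside called peaks and not of library depth.

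Not every one of these peaks lay away from a gene start once another annotation was laid over them. RefSeq transcript starts of GRCm38.p6, which the rule did not use, fell inside 152 of the 1630 peaks on chromosomes that the RefSeq promoter table covers (9.33%, interval 8.01 to 10.8%), and 199 peaks had one within 1 kb. Among WT non-promoter peaks that overlapped a KO peak, 644 of 1442 held such a start (44.7%). The term non-promoter therefore refers to the start sites of the peak lists. Of the 102 protein-coding genes with a RefSeq start inside a peak, 41 had no RefSeq start outside these peaks. For 20 of the 102 another start of the same gene lay in a peak shared with KO. The other 41 had a start outside these peaks, but none in a shared peak.

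The DNA just before 6 of these RefSeq starts was read to see how CpG-rich they are, from 3 of the strongest peaks with a coding start inside (Bcar1, Elmo2 and Abcg2), from Stat5b and Ctla4 of the gene lists, and from the long noncoding RNA Gm32999, which lies inside Cd247. The windows were chosen after the values were seen, each holds the 250 bases upstream of the start, 5′ to 3′ on the strand of the gene, from RefSeq (GRCm38.p6), and capitals mark CpG dinucleotides, the sites on which CpG-binding proteins of the methyltransferase complexes act.
Bcar1, chr8:111732137-111732386, strand minus: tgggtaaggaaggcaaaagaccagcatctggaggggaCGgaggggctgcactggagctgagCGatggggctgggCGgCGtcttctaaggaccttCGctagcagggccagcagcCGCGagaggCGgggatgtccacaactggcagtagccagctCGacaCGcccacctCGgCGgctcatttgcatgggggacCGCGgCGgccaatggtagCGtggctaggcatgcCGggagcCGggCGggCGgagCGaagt
Elmo2, chr2:165320827-165321076, strand minus: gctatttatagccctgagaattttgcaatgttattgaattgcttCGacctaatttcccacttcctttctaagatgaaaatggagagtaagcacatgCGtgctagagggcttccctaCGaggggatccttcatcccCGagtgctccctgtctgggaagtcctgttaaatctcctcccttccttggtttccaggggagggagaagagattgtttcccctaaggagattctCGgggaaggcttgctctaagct
Abcg2, chr6:58640296-58640545, strand plus: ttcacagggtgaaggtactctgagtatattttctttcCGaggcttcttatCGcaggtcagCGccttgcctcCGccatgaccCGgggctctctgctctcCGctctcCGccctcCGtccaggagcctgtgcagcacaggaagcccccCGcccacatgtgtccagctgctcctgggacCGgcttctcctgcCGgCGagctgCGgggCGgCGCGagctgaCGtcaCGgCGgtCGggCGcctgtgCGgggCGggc
Stat5b, chr11:100822571-100822820, strand minus: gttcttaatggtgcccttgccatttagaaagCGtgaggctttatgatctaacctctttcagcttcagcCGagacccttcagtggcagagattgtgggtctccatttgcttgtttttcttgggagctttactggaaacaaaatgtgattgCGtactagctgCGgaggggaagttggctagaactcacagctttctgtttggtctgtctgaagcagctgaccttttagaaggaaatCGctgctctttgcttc
Ctla4, chr1:60908775-60909024, strand plus: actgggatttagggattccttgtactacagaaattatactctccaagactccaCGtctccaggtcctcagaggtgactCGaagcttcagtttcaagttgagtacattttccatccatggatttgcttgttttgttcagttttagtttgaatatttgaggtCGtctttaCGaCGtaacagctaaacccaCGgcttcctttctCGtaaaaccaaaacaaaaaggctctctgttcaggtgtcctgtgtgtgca
Gm32999, chr1:165849127-165849376, strand minus: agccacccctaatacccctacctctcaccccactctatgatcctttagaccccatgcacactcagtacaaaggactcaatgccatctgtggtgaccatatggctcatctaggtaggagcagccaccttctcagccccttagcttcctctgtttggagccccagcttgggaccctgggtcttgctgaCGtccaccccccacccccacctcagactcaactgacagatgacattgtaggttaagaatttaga
The CpG content of the windows differed widely. The Bcar1 window held 21 CpG and the Abcg2 window 23, with observed-to-expected CpG ratios of 0.78 and 0.81. Elmo2 and Stat5b had 5 CpG each, with ratios of 0.35 and 0.38, and the Gm32999 window had 1. The Ctla4 window had 7 CpG and a ratio of 0.625, although its share of G and C was 42.4%. Bcar1, which encodes the p130Cas adaptor of integrin signalling, had 228 tags and the highest fold enrichment over the local background of any of the 1691 peaks, 31.85. Abcg2, which encodes an efflux transporter, had 177 tags and a fold enrichment of 23, and the nearest KO peak lay 190 kb away. Elmo2, which encodes a partner of the Rac activator Dock proteins, had 293 tags, and its nearest KO peak was 0.542 kb from it. The Stat5b peak, 108 tags at chr11:100821433-100823072, covered an internal start of the gene for a signal transducer of interleukin-2. Ctla4 encodes an inhibitory receptor best known in T cells, and its peak of 153 tags covered the one RefSeq start of the gene, with the nearest KO peak 66.1 kb away.

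Over all 172 RefSeq start windows in these peaks, the median CpG ratio was 0.57, against 0.65 for the 821 windows in shared non-promoter peaks, 0.79 for the 10247 in shared promoter peaks and 0.22 for the 20248 windows in no WT peak. Promoter peaks called in WT alone had a median ratio of 0.70. A ratio of at least 0.6 was reached by 47.1% of the windows, against 34.1% of all 32585 windows in the table. The share was higher in each other peak class. It was 55.9% in shared non-promoter peaks, 66.7% in promoter peaks called in WT alone and 77.5% in shared promoter peaks. Core words of transcription factors were then counted on both strands as exact letters, and none of the words contains another. CCGGAA, the core word of many Ets factors, stood in 14 of the 172 windows (8.14%, interval 4.91 to 13.2%), in 174 of 821 windows of shared non-promoter peaks (21.2%, interval 18.5 to 24.1%), in 26.0% of those in shared promoter peaks and in 12.1% of all windows. Promoter peaks called in WT alone, chosen by the same KO rule, held it in 131 of 1097 windows (11.9%, interval 10.2 to 14.0%). The gap remained among windows with a CpG ratio of at least 0.6, where the shares were 11.1% (9 of 81, interval 5.96 to 19.8%) in the peaks described here, 10.8% in promoter peaks called in WT alone, 24.4% in shared non-promoter peaks and 29.4% in shared promoter peaks. The classes also differ in tags. In peaks of under 100 tags the shares were 8.59% (11 of 128, interval 4.87 to 14.7%) against 13.9% in shared non-promoter peaks (5 of 36, interval 6.08 to 28.7%). From 100 to under 200 tags they were 7.5% (3 of 40, interval 2.58 to 19.9%) against 23.1% (30 of 130, interval 16.7 to 31.0%), and in both tag classes the intervals overlapped. Among promoter peaks the shares from 100 to under 200 tags were 10.5% when called in WT alone (34 of 324, interval 7.61 to 14.3%) and 18.9% when shared (147 of 776, interval 16.3 to 21.9%). Under 100 tags they were 12.4% (interval 10.2 to 15.01%) and 16.4% (interval 11.2 to 23.4%). TCAAAG, a Tcf/Lef core word, stood in 20 of the 172 windows (11.6%, interval 7.65 to 17.3%), in 13.9% of all windows and in 8.02 to 9.87% of those in the other 3 classes of WT peaks. Among windows with a CpG ratio of at least 0.6 the order was reversed. There the word stood in 3 of 81 (3.70%, interval 1.27 to 10.3%), against 5.87 to 8.14% in the other 3 classes. TGTGGT, a Runx core word, was found in 12.2% of the 172 windows, in 13.9% of all windows and in 9.39 to 12.7% in the other peak classes. TATAAA was found in 5.23%, in 12.4% of all windows and in 5.12 to 6.02% in the other peak classes, so its share was like that of peaks in general. A word in a window is not a bound site.

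The peaks were weak and narrow next to those called in both genotypes. Across WT peaks as a whole, 22.5% (3089 of 13753) lacked a KO peak, with 13.2% of promoter peaks (1398 of 10567) and 53.1% of non-promoter peaks (1691 of 3186), and since the rule used that contrast nothing is read from these shares. Their number moved with the thresholds of both H3K4me3 lists. With the WT list cut by score to 11074 peaks, the length of the KO list, 279 peaks and 17.6% of non-promoter peaks met the rule. That cut dropped the WT peaks of lowest score and left the KO list whole. With a score of at least 100 asked in both lists, 863 peaks and 40.7% met the rule. With a false discovery rate of at most 1% in both, the number moved the other way, to 1828 peaks and 61.9%. Before that cut the rate ran up to 1.39% in the WT H3K4me3 list and 29.52% in the KO one. The 1691 peaks held a median of 51 tags (quartiles 34 and 80, range 17 to 820) over a median of 1171 bp. The 1495 shared non-promoter peaks held a median of 271 tags over 2003 bp, the 1398 promoter peaks called in WT alone 72 tags over 1304 bp, and the 9169 shared promoter peaks 522 tags over 2221 bp. Per kilobase the medians were 41.5, 129, 54.0 and 229 tags in the same order. The median fold enrichment was 6.27, against 21.4 in shared non-promoter peaks. Together the 1691 peaks made up 12.3% of WT peaks, 7.17% of the bases covered and 1.72% of the tags.

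Absence from the KO list does not give a level in KO, because the lists hold no values outside called peaks. The weakest KO peaks show how low the densities of called KO peaks ran, in tags that are not scaled to depth in either library. A share of 81.1% of the 1691 peaks (1372) had fewer tags per kb in WT than the 5th percentile of KO peaks, 60.0 tags per kb, as against 12.1% of shared non-promoter peaks. The lowest density of any KO peak was 34.4 tags per kb, and 476 of the 1691 (28.1%) lay under it. Neither density is known to be the calling limit. At the 1495 shared non-promoter peaks the KO library had a median of 1.13 times the WT tags but 0.50 times the WT fold enrichment, with medians of 21.4 in WT and 11.4 in KO, and the KO fold was the lower at 1400 of 1495. How far this lower fold in KO bears on the calls was not tested.

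The rule also fixes the share of peaks without a KO call in each class of tags, so those shares are given as a description. Of non-promoter WT peaks with under 40 tags, 94.2% (555 of 589) had no KO peak, and of those with 400 tags or more 1.54% (8 of 521). Promoter peaks fell from 86.7% to 0.25% over the same classes. From 120 to under 200 tags the shares were 31.6% and 23.2%. Only 45 of the 1691 peaks (2.66%) held 200 tags or more.

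**Figure D1:**
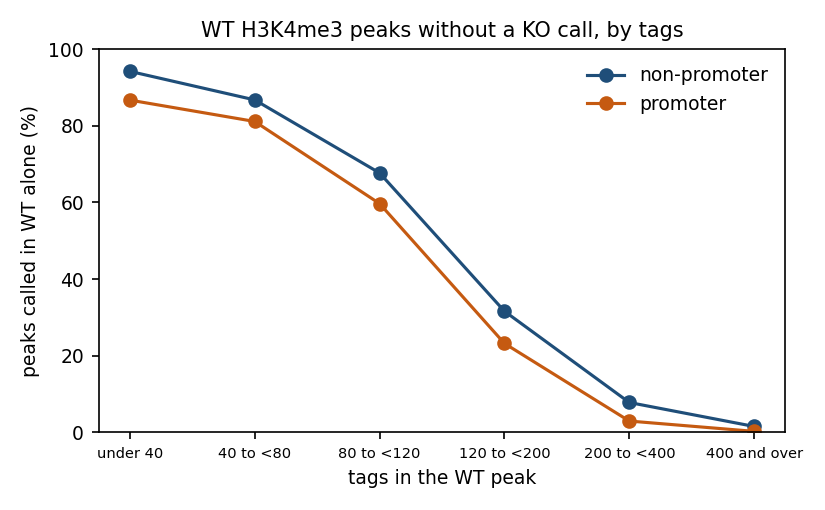
Percent of WT H3K4me3 peaks called in WT alone (vertical axis) against the tags in the WT peak (6 classes), for non-promoter and promoter peaks. Both lines fall from over 86% under 40 tags to under 2% at 400 tags and over.

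Among the strong peaks, 11 had a score of at least 1000, where the score is minus 10 times the log10 of the caller's p-value. The peak upstream of Lfng led them. Lfng encodes Lunatic fringe, a glycosyltransferase that modifies Notch receptors, and its upstream peak at chr5:140595024-140598350 lay 8.99 kb before the gene and held 462 tags, with a fold enrichment of 15.16 and a score of 2298. A second, weaker peak of 79 tags lay 39.4 kb upstream. The KO library had a peak of 4151 tags at Lfng itself, 7.83 kb from the stronger one, so the gene was marked in both genotypes and the upstream region was called in WT alone. A peak of 398 tags inside Unc13a, with a score of 1509 and a fold of 22.21, lay 8.19 kb upstream of Jak3, the kinase that signals from the common gamma chain of cytokine receptors. Next in score came peaks inside Scrt1 (296 tags), Cystm1 (243 tags) and Bcar1 (228 tags), a peak upstream of Runx3 (300 tags), and peaks inside Nhsl1 (223 tags), Mgat4e (242 tags, 2.75 kb from the start of Kdm5b, a demethylase of H3K4), and Lif (280 tags), and a peak of 234 tags whose nearest coding gene is 1700001O22Rik, 86.7 kb away. Lif encodes a cytokine of the interleukin-6 family. Of these, the Bcar1 and Nhsl1 peaks stood farthest from a KO peak, at 86.2 and 81.9 kb. Peaks inside Prdm11 (172 tags, fold 28.5), Dlgap3 (198 tags, fold 24.9), Arhgap23 (184 tags, fold 22.95) and near Slc52a3 (94 tags, fold 24.3) and Cdc20b (129 tags, fold 22.2) completed the highest fold enrichments.

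The widest peak had the most tags and a low fold. It spanned 8375 bp at chrX:169992506-170000880, 1.71 kb from Mid1, which encodes a ubiquitin ligase and lies at the edge of the pseudoautosomal region, and held 820 tags with a fold of 5.02 and a score of 65.2. The nearest KO peak lay 671 kb away. Other wide peaks, of 3783 to 4796 bp, stood near Smndc1 (297 tags), Smgc (289 tags) and Ift57 (200 tags) and inside Fam117a (244 tags), Tbkbp1 (201 tags), Kcnk5 (191 tags) and Tbc1d2b (177 tags). Their folds were 3.49 to 9.43, under those of the peaks of highest score.

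Peaks stood at all distances from a KO peak. Of the 1691, 54 lay within 1 kb of a KO peak, 178 between 1 and 5 kb and 157 between 5 and 10 kb. Most numerous were the 507 between 10 and 50 kb, and 588 (34.8%, interval 32.5 to 37.1%) lay over 100 kb away. The distant ones were weaker, with a median of 68.5 tags at 1 to 5 kb, 60 at 10 to 50 kb, 38 at 100 to 500 kb and 30 beyond 500 kb. They were also less often inside genes, with 90.7% in a gene within 1 kb of a KO peak and 34.9% beyond 500 kb. In all 1104 peaks (65.3%, interval 63.0 to 67.5%) lay in a gene, fewer than the 86.0% (interval 84.2 to 87.7%) of shared non-promoter peaks. Somewhat more of them lay downstream of the nearest listed start than upstream, 54.2% (interval 51.8 to 56.6%), and among the 324 within 5 kb of a start 59.9% did (interval 54.5 to 65.1%). Shared non-promoter peaks within 5 kb of a start gave 59.3% (interval 54.1 to 64.2%).

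At the edge of the KO rule, the nearest peaks inside it lay in Cblb (64 tags, 21 bp from a KO peak), Togaram1 (33 tags, 31 bp) and Cd247 (208 tags, 31 bp). Just outside it stood Nrros (68 tags, 59 bases shared with a KO peak), Cerk (115 tags, 137 bases) and Grn (46 tags, 185 bases). At the edge of the TSS rule, peaks are named by their nearest coding gene. The distance given is to the nearest listed start, often that of another feature. Peaks nearest to Trim17 (60 tags, 1004 bp), Try4 (32 tags, 1005 bp, but 101 kb from Try4 itself) and Tm9sf2 (92 tags, 1010 bp) were inside the rule. Peaks nearest to Pgr (28 tags, 993 bp), Arhgdig (140 tags, 983 bp, from the start of Rgs11) and Tmem132d (39 tags, 977 bp) were outside.

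The Tcf1 antibody lists were not used by the rule, and more of these peaks met the KO list than the WT list. Of the 1691 peaks, 45 overlapped a WT Tcf1 peak by at least 1 base (2.66%, interval 1.99 to 3.54%), against 0.713% of all WT H3K4me3 peaks. A KO Tcf1 peak was overlapped by 192 (11.4%, interval 9.93 to 13.0%), against 1.83% of all WT H3K4me3 peaks. The WT Tcf1 list holds 866 peaks and the KO Tcf1 list 5139, and the KO cells carry no Tcf7, so the KO list shows what this antibody gave in cells labelled as lacking its target. In the other classes a KO Tcf1 peak was met by 0.936% of shared non-promoter peaks (14 of 1495), 1.93% of promoter peaks called in WT alone (27 of 1398) and 0.196% of shared promoter peaks (18 of 9169). Both Tcf1 lists were met by 37 of the 1691 (all WT H3K4me3 peaks: 0.444%), the KO list alone by 155, the WT list alone by 8, and neither by 1491. With Tcf1 peaks of a score of at least 100 the counts were 25 for WT and 53 for KO. With the WT H3K4me3 list cut by score to the length of the KO list, the shares lay close together. Of the 279 remaining peaks, 3.58% lay on a WT Tcf1 peak and 3.23% on a KO one, and no order is read from them.

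The 8 peaks that met a WT Tcf1 peak and no KO one were small, with 22 to 89 tags. The strongest, 89 tags and a fold of 13.11, lay 1.20 kb from Efna5, an ephrin ligand gene. A peak of 52 tags lay 66.4 kb from Nkd1, which encodes an inhibitor of Wnt signalling, and others were inside Gabrg3 (56 tags), Gm51792 (47) and Lrfn5 (22). The rest lay far from their nearest coding genes, 162 kb from Gulp1 (42 tags), 343 kb from Col12a1 (36) and 150 kb from Opa1 (35). The false discovery rates of their WT Tcf1 peaks had a median of 26.8%. These were 8 of 1691 (0.47%, interval 0.24 to 0.93%), beside 0.269% of all WT H3K4me3 peaks. The counts in the other classes were 5 of 1398 promoter peaks called in WT alone (0.36%, interval 0.15 to 0.83%), 2 of 1495 shared non-promoter peaks (0.13%, interval 0.04 to 0.49%) and 22 of 9169 shared promoter peaks (0.24%, interval 0.16 to 0.36%), and all 3 of these intervals overlap that of the 8.

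At most of the 37 peaks met by both Tcf1 lists, the tags given for the 3 antibody libraries were alike. At 27 the highest of the 3 values was within 1.5 times the lowest, and at 10 it was not. Each value is the tags of that library's own peak, whose bounds can differ, and is not scaled to depth. Near Axin2, a Wnt target gene 60.7 kb away, the values were 715 tags with H3K4me3 in WT, 790 with Tcf1 in WT and 803 with Tcf1 in KO. The corresponding values were 617, 658 and 623 28.8 kb from Rpusd4, and 596, 710 and 719 for a peak 282 kb from Pex2. Inside Cmss1 they were 532, 642 and 708. For a peak 64.2 kb from Cr2, a complement receptor gene, they were 396, 306 and 296. The next 5 in tags, nearest to Rab10, Aadac, Samd9l, Rpp21 and Chl1, held 302 to 362 tags with H3K4me3. Over the 37 peaks the ratio of H3K4me3 tags to WT Tcf1 tags had a median of 0.90 (quartiles 0.82 and 0.96), and that of KO to WT Tcf1 tags a median of 1.04. The first ratio ran from 0.65 to 2.43. Near Apbb1ip the values were 225, 105 and 118, near Prim2 56, 23 and 39, and near Dph6 39, 21 and 22. At these 3 the H3K4me3 peak held more tags than the Tcf1 peaks, over bounds that can differ. These 3 were chosen after their values were seen. The density of the 37 peaks was high, with a median of 128 tags per kb, while their median fold of 6.57 was near the 6.43 of peaks met by neither list. Of the 11 peaks with 200 tags per kb or more, 10 were met by both Tcf1 lists. The part of such regions in the H3K4me3 calls was not tested, and input values per peak are not used here.

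**Figure D2:**
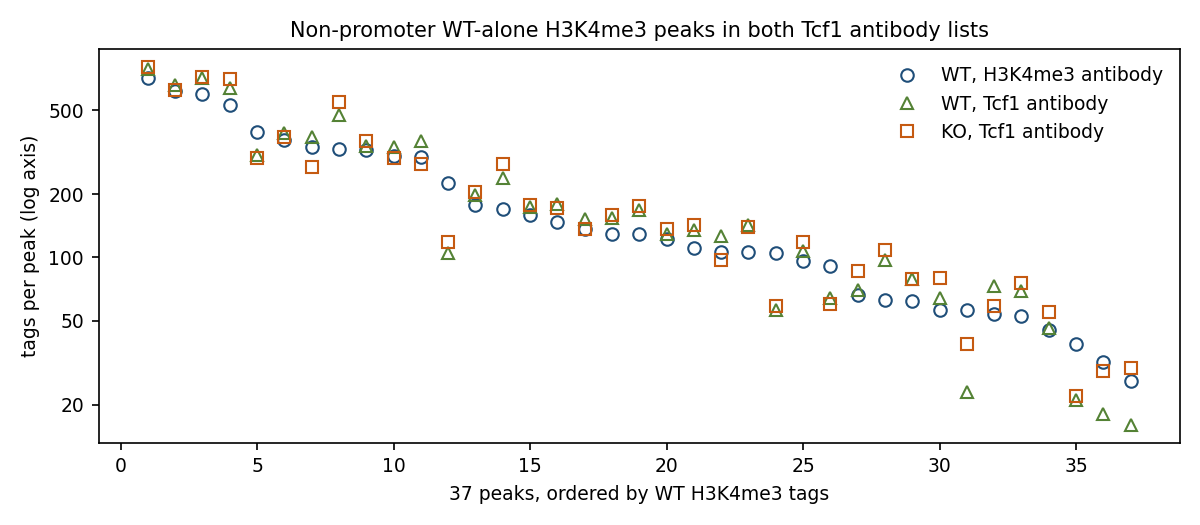
Tags per peak (log axis) of the 37 peaks that overlap a Tcf1 antibody peak in both genotypes, ordered along the horizontal axis by their WT H3K4me3 tags, for 3 libraries. Each value is taken over that library's own peak and is not scaled to depth. The 3 symbols lie close together at most peaks, as near Rpusd4 (617, 658 and 623 tags), and apart at some, as near Apbb1ip (225, 105 and 118).

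The 155 peaks met by the KO Tcf1 list alone were another set. They held a median of 33 tags, and 32.7 tags per kb with the 10th and 90th percentiles at 28.9 and 37.4. Their median distance to a KO H3K4me3 peak was 340 kb, and 44.5% lay in a gene. The KO Tcf1 peaks they met held a median of 26 tags with a median false discovery rate of 100%, and at 82 of the 155 the summits lay within 200 bp. Overlap with the KO Tcf1 list rose along the distance from a KO H3K4me3 peak, from 0 of 54 peaks within 1 kb (upper bound 6.64%) and 0 of 178 at 1 to 5 kb (upper bound 2.11%) to 4.14% at 10 to 50 kb, 21.1% at 100 to 500 kb (interval 17.4 to 25.4%) and 33.8% beyond 500 kb (interval 27.6 to 40.7%). In promoter peaks called in WT alone the shares were 1.26%, 1.80% and 10.1% at those last 3 distances. Without the 200 peaks that met either Tcf1 list, the median was 53 tags and 43.1 tags per kb.

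**Figure D3:**
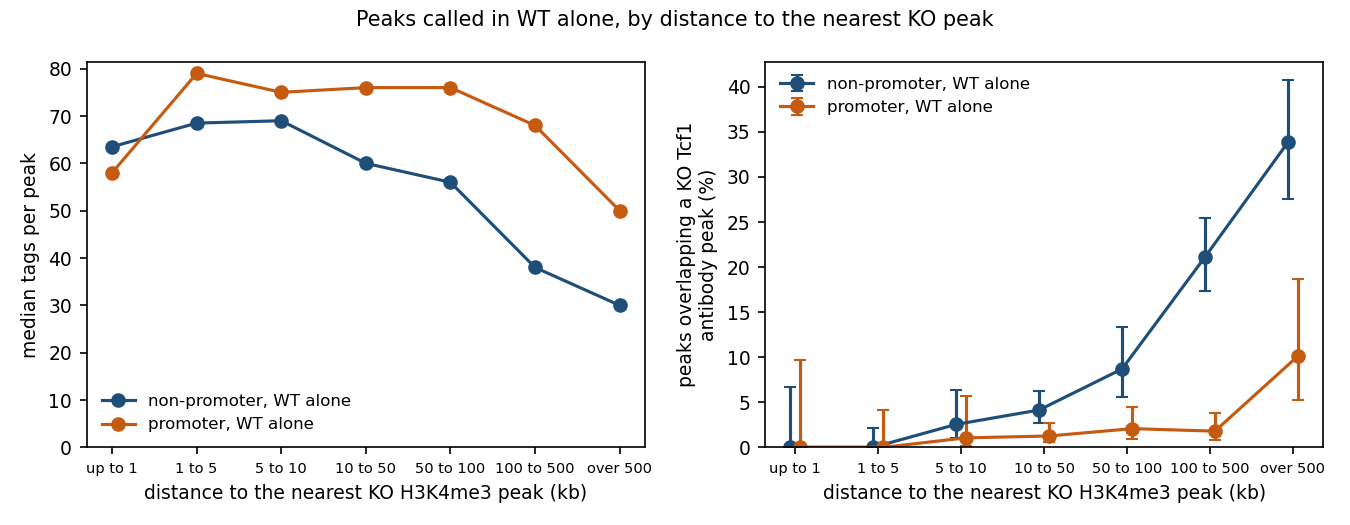
Median tags per peak (left) and percent of peaks that overlap a KO Tcf1 antibody peak (right, bars are 95% Wilson intervals) against the distance in kb to the nearest KO H3K4me3 peak, for non-promoter and promoter peaks called in WT alone. Non-promoter peaks fall from 68.5 tags at 1 to 5 kb to 30 beyond 500 kb while the overlap rises from 0% to 33.8%.

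The genes near the peaks were counted for 18 lists. Of 21627 protein-coding genes, 13.8% had one of the 1691 peaks inside or within 50 kb, which was 16.7% of the 10702 genes that hold a shared H3K4me3 peak and 10.9% of those that hold none. Over the 311 genes of the lists, 87 (28.0%) had one, and 40 (12.9%) within 10 kb, against 5.95% of protein-coding genes. The lists were chosen with earlier results of these data known, and gene neighbours in a cluster share peaks, so the counts are descriptions.

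**Figure D4:**
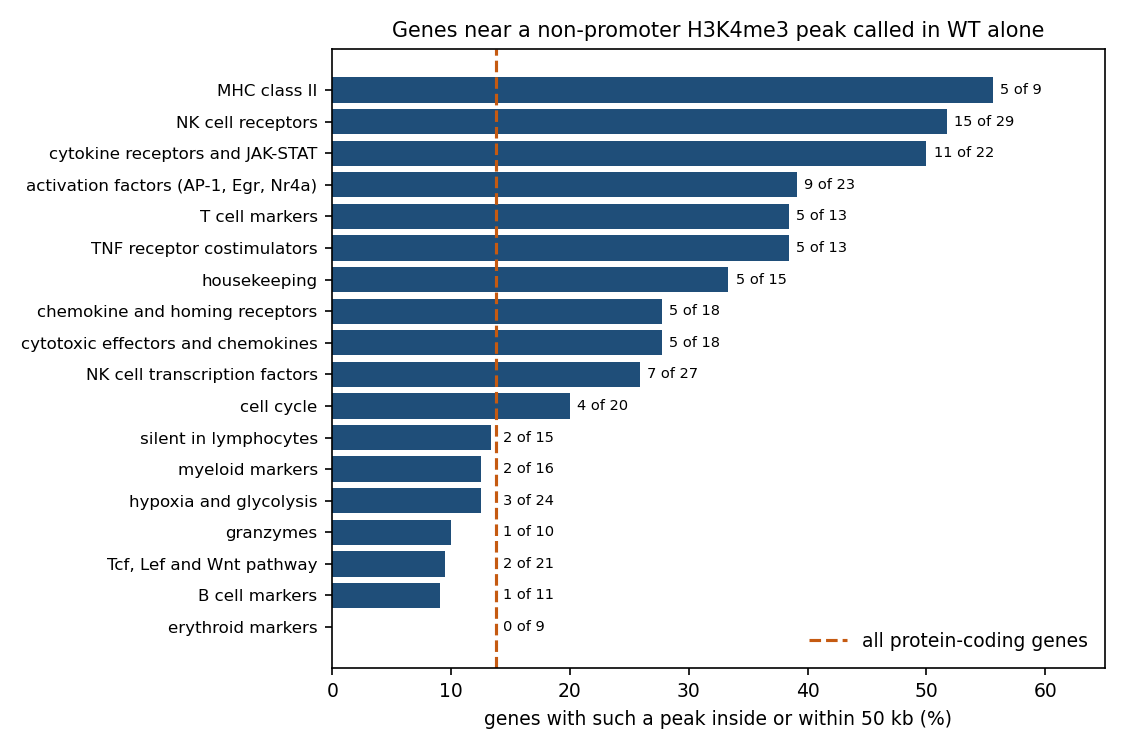
Percent of the genes of each of 18 lists with a non-promoter H3K4me3 peak called in WT alone inside the gene or within 50 kb, with the counts beside each bar. The dashed line is the share of all protein-coding genes, 13.8%; MHC class II (5 of 9, from 2 distinct peaks), NK cell receptors (15 of 29) and cytokine receptors with JAK-STAT genes (11 of 22) have the longest bars.

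Receptors of NK cells had the most peaks, with 15 of 29 genes and 18 distinct peaks within 50 kb, and 9 of the genes held a peak inside (31.0%, as against 3.87% of protein-coding genes). Fcgr3 encodes the Fc receptor CD16, through which NK cells kill antibody-coated targets. Upstream of it stood a pair of broad peaks, 430 tags at chr1:171069693-171074097 and 435 tags at chr1:171077439-171082145, 3.78 and 11.5 kb before the gene and 4405 and 4707 bp long. A further peak of 86 tags lay 44.9 kb upstream, and the nearest KO peak to the pair, 217 tags, lay inside the gene. The NK gene complex on chromosome 6 held a run of weak peaks. Klrd1, which encodes CD94, held 2 inside it, with 59 and 47 tags, and the latter lay 0.824 kb from a KO peak of 236 tags. Around Klrk1, which encodes NKG2D, peaks of 65 and 69 tags lay 1.87 kb downstream and 3.75 kb upstream. Klrc2 and Klrc1, whose NKG2 products pair with CD94, held 63 and 20 tags. Among the Ly49 receptors of the same complex, Klra4 held a peak of 67 tags and Klra7 one of 39, the latter 0.146 kb from a KO peak of 213 tags. Reads from these near-identical gene copies can be placed wrongly, so the positions in the Klra and Klrc families are uncertain. Elsewhere Slamf7 held 40 tags and Lag3 60. Ncr1, Klrb1c, Cd226, Tigit, Cd96 and Havcr2 had no such peak within 50 kb.

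Cytokine receptors and their kinases followed, with 11 of 22 genes and 14 distinct peaks. All 11 also held a peak shared with KO, but so did 21 of the 22 genes of the list. Besides the 398 tags upstream of Jak3, peaks of 103 and 162 tags lay 46.1 kb upstream and 1.79 kb downstream of it. Il21r, the receptor of interleukin-21, held a peak of 176 tags with a fold of 13.86, 23.9 kb from a KO peak. A peak of 76 tags lay 10.2 kb from Il2rb, the signalling chain of the interleukin-2 and interleukin-15 receptors, and one of 93 tags 41.2 kb from Il12rb1. Jak1 held one of 30 tags, 0.563 kb from a KO peak of 1256 tags. Il2ra, Il2rg, Il7r, Il18r1, Stat4 and the feedback inhibitors Socs1, Socs3 and Cish had none within 50 kb.

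Transcription factors of NK cells had a peak near 7 of 27 genes. Runx3, which drives cytotoxic lymphocyte programmes, had the strongest, 300 tags with a fold of 16.07 at chr4:135068009-135071120, 49.5 kb upstream, and a weaker one of 93 tags inside the gene. The nearest KO peak to the upstream one was 5.94 kb away and held 135 tags. Upstream of Tbx21, which encodes T-bet, peaks of 87 and 201 tags lay 11.2 and 27.7 kb away, the latter inside Tbkbp1. Nfil3 had 161 tags 19.2 kb upstream, 0.278 kb from a KO peak of 82 tags, and Irf8 had 84 tags 10.5 kb upstream. Ets1, Ikzf2 and Bcl11b held peaks of 56, 36 and 31 tags. Among genes induced by activation (9 of 23), peaks lay inside Batf (58 tags) and Nfkb1 (73 tags), 6.69 kb upstream of Nr4a1 (67 tags), and near Fosl1 (117 tags) and Nfkbia (93 tags).

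Costimulators of the TNF receptor kind and their relatives had peaks at 5 of 13 genes. Tnfrsf9, which encodes 4-1BB, held one of 182 tags, 0.283 kb from a KO peak of 419 tags. Near Tnfrsf18, which encodes GITR, the stronger of 2 held 168 tags. Of chemokine and homing receptors 5 of 18 had a peak, among them the integrin genes Itgb7 (166 tags, inside) and Itgb2 (67 tags, inside). Cytotoxic effectors and chemokines had 5 of 18 as well, with 117 tags 30.9 kb from Ctsw and 50 tags 22.4 kb from Prf1, and only 1 of 10 granzyme genes had one, 24 tags near Gzmm.

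Markers of T cells had a peak at 5 of 13 genes, from 3 distinct peaks. One of 112 tags in Cd3d served Cd3d, Cd3e and Cd3g, one of 208 tags lay in Cd247, which NK cells also use, and the 60 tags in Lag3 lay 15.4 kb from Cd4. The 112 tags are part of the 147 given above for Cd3d in WT. The KO list held no peak at the 6 T cell markers, and the part of T cells in the other results was not tested. MHC class II genes had 5 of 9, from 2 distinct peaks, 91 tags in H2-Eb1 and 56 tags near H2-DMa. Housekeeping genes had 5 of 15 (33.3%), so a share above 13.8% is not confined to lymphocyte genes. The Tcf, Lef and Wnt list had 2 of 21 (9.52%), which were Rnf43 (133 tags downstream and 78 inside) and Apc (36 tags, 35.4 kb away). At 50 kb that share lay under that of all genes, but within 100 kb it was 8 of 21 (38.1%) against 21.4%, and inside genes 4.76% against 3.87%. Hypoxia and glycolysis genes had 3 of 24, with 115 tags near Slc2a1 and 87 inside Slc2a3, and cell cycle genes 4 of 20, with 141 tags near Tyms. B cell markers had 1 of 11, myeloid markers 2 of 16, erythroid markers 0 of 9 and genes silent in lymphocytes 2 of 15.

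Loci with 3 or more of the peaks, each within 20 kb of the next, numbered 9 and held 29 peaks (1.71%). They were led by Tbc1d2b, with 4 peaks and 417 tags over 18.9 kb, followed by Pxn, which encodes paxillin (3 peaks, 348 tags), the region near Ier5 (3 peaks, 295 tags), Gnai2 (3 peaks, 291 tags) and Scarf2 (3 peaks, 249 tags). The Klrd1 and Klrk1 run had 4 peaks and 240 tags over 41.7 kb. A peak shared with KO lay within 20 kb of 7 of the 9, and 0 of the 9 held a peak met by the KO Tcf1 list. Over all 1691 peaks, 11.4% met that list and the median distance to a shared peak was 45.3 kb. With 29 peaks in these loci, nothing is read from the counts. By chromosome the peaks made up between 8.73% of WT peaks (chromosome 17) and 16.6% (chromosome 18), with 15.9% on X.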

How the data were processed

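Peaks of 4 antibody libraries (Tcf1 and H3K4me3, WT and KO) were used as deposited. Reads were aligned with Bowtie2 2.1.0 and peaks called with MACS 1.4, per the submitters' processing notes, which name mm10, GRCm38 and GRCh37 without saying which served here. The control track and the settings are not given in the sources used here. Per the file headers, the authors give for each peak a whole number of tags (a count, not scaled to depth), a score (minus 10 times the log10 of the p-value), a fold enrichment (a ratio over the local background) and a false discovery rate in percent.

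Rows were reduced to distinct peaks and starts, which count from 0, were moved to count from 1. Gene ends of the listed features lay within 1 kb of RefSeq GRCm38.p6 ends for 13322 of 13684 matched genes (97.4%), so positions are given as GRCm38. Overlap meant at least 1 shared base. Overlaps, distances and shares were computed in Python 3.11.15 with numpy 2.4.6, pandas 2.3.3 and scipy 1.17.1, and figures were drawn with matplotlib 3.10.9. The overlap and distance steps were tested on simulated data. Genes came from RefSeq, and all 311 list genes matched. With 1 library a group no p-value was computed, and library depth is not given by peak lists. The 18 WT peaks on Y or unplaced contigs were left out, and start windows on chromosome 18 were not analysed here.

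The peaks, gene lists and markers were chosen with earlier results of these data known. The rule for names took the 10 peaks of most tags, score, fold and width, the strongest by Tcf1 overlap, up to 4 genes a list (some of which are given only in counts), the peaks beside each threshold, and loci with 3 or more peaks. Further genes, and the windows printed, were picked after their values were seen. Alternatives varied the overlap, score, false discovery rate, list length, TSS window, TSS source, chromosomes and gene distance.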

Additional observations from a re-analysis of the deposited data

How the results depend on the processing

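Of 97 values recomputed under alternatives, 56 stayed within their interval (for counts, within 1.5 times) and 41 moved; none has a test. Cutting the WT H3K4me3 list by score to the length of the KO list, which stayed whole, left 279 peaks, 17.6% of non-promoter WT peaks. Their medians were 123 tags and 73.5 tags per kb, with 77.8% in a gene and 17.6% within 5 kb of a KO peak. On a WT Tcf1 peak lay 3.58%, and on a KO Tcf1 peak 3.23%. A score of at least 100 in both lists left 863 peaks (40.7%), with 90 tags, 59.9 tags per kb, 75.9% in a gene, 17.7% within 5 kb of a KO peak and 5.21% on a KO Tcf1 peak. A false discovery rate of at most 1% in both gave 61.9% called in WT alone, with 64 tags, 47.5 tags per kb, 67.7% in a gene and 8.97% on a KO Tcf1 peak. A TSS window of 5 kb gave 47 tags, 39.9 tags per kb, 61.2% in a gene, 6.88% within 5 kb of a KO peak and 13.2% on a KO Tcf1 peak, and a start inside the peak gave 67.6% in a gene. Start sites at both RefSeq gene ends gave 60.4% called in WT alone, 48 tags, 39.4 tags per kb, 58.0% in a gene and 13.9% on a KO Tcf1 peak. Counting a KO peak within 1 kb as shared left 10.9% within 5 kb of one. Tcf1 peaks of a score of at least 100 met 1.48% (WT) and 3.13% (KO). A member peak within 10 kb was found for 40 list genes. Chosen after seeing the data, RefSeq transcript starts as added start sites gave 64.4% called in WT alone, 40.2 tags per kb and 60.8% in a gene. Leaving out peaks on a Tcf1 antibody peak, also chosen after seeing the data, gave 43.1 tags per kb, 68.2% in a gene and 15.6% within 5 kb of a KO peak. Beyond the thresholds themselves, the cause of these moves was not tested.

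No paired analysis was possible because each group held 1 library. Peak lists give neither library depth nor KO values where KO had no peak, so weaker KO signal below the calling limit and no KO signal cannot be told apart.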
